A study of Mus musculus with 16 samples.

Results

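Cell cycle and proliferation genes were followed in RNA sequencing of whole mouse islets. The 45 genes were chosen by symbol as known regulators or parts of cell division, by a rule that used no measured value but with earlier results of these data known. All 45 were in both tables of the series, one with 17361 genes and the other with 17318. The libraries formed 4 groups of 4. On normal chow, Flox mice carried loxP sites around part of the B7-H4 gene (Vtcn1) on both alleles and no Cre, and B7-H4 cKO mice carried the same floxed alleles together with a Cre recombinase driven by the rat insulin II promoter (Rip-Cre), which is active in β cells. The ages of the chow-fed mice were not given in the sources used here. The groups on a high-fat diet (HFD) were both made from Flox mice, so that they also carried the floxed alleles. These mice entered the diet at 6 weeks of age, received virus through the pancreatic duct after 8 weeks on it, and gave their islets 5 weeks after the infusion. Ctrl mice received the control virus AAV2/8-Ctrl and OE mice received AAV2/8-Ins2-B7H4, which encodes B7-H4 under an insulin promoter. Mice with Rip-Cre and unfloxed alleles were not analysed here, so that effects of Cre and of the loss of B7-H4 cannot be told apart in the chow comparison.

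A cell enters division when D-type cyclins activate their kinases, the retinoblastoma proteins release E2F factors, and E2F switches on the genes for DNA replication. Cyclin A, cyclin B and Cdk1 then drive mitosis, and the genes for spindle, kinetochore and chromosome separation are transcribed late in the cycle through B-Myb and FoxM1. Adult β cells divide rarely and hold a large stock of cyclin D2 and of the inhibitor p27, so that mitotic transcripts in whole islets are scarce and can come from any cell type in the preparation. In such bulk RNA, fewer cells of a type and less RNA per cell cannot be told apart.

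The libraries were checked before the members were read. Vtcn1 itself was at 0.0786 ± 0.0933 FPKM (fragments per kilobase of gene, scaled to the fragments of the library; SD, n = 4) in Flox and 0.0574 ± 0.0493 in cKO (SD, n = 4), so that in chow-fed islets it lay near the lowest measurable step in both groups and could not check the labels. It was at 0.267 ± 0.141 FPKM in Ctrl and 75.6 ± 37.5 in OE (SD, n = 4 each), higher in every OE library than in every Ctrl library. The 11 islet endocrine markers were above 0 in every group and made up between 4.60% (Ctrl 3) and 60.2% (Ctrl 1) of all FPKM of a library. Acinar transcripts, the digestive enzymes of the exocrine pancreas, differed widely. The 18 acinar markers made up between 6.65% and 31.0% of all FPKM in Flox, 32.0% to 39.8% in cKO, 1.99% to 69.1% in Ctrl and 9.92% to 12.8% in OE. Relative sequencing depth, read from the steps between low values, lay between 0.914 and 1.18 of the median library. Flox 2 stood apart from the other Flox libraries, and Ctrl 2 and Ctrl 3 from Ctrl 1 and Ctrl 4, as described with the results they touch. The labels do not say whether the libraries of a group came from separate mice or pools, so that p-values measure only the spread between these libraries.

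In chow-fed islets, transcripts of the mitotic genes were higher in B7-H4 cKO than in Flox, while those of D-type cyclins and of the Cdk inhibitors p21 and p27 were lower. Of the 45 members, 30 had a mean of at least 0.5 FPKM and were tested in limma on log2(FPKM + 0.5), with Benjamini-Hochberg adjustment over all 11804 genes tested. At an adjusted p under 0.05, 7 of the 30 rose in cKO (Ccnb1, Ccnb2, Birc5, Cdc20, Ube2c, Mki67 and Top2a), against 1.02% of all genes tested, and 4 fell (Ccnd1, Ccnd2, Cdkn1a and Cdkn1b), against 12.8%. The share of members that fell was near that of all genes, so that the count of decreases is no result about the members. With an absolute log2 fold change over 1 required as well, Ccnb1 and Ube2c remained on the higher side (0.339% of all genes) and Cdkn1a on the lower (0.974%). The filter on the mean acts on the members: those that were tested had to be expressed in at least one of the groups, and the other 15 are described by their values. Ccnb1 (0.203 FPKM), Ccnb2 (0.415), Birc5 (0.464), Cdc20 (0.457) and Mki67 (0.428) had Flox means under 0.5 FPKM. They passed the filter only through their cKO values, so that the share of members called higher depends on the filter. When every gene above 0 was tested, no gene was called (0.00%). The groups did not overlap for 4 of the 45 members with every cKO library higher, and for 3 with every cKO library lower, beside 1.44% and 11.7% of all genes with any value above 0.

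The whole table was shifted towards lower values in cKO, and the members' changes are to be read against that shift. The median log2 fold change was -0.34 over all genes tested and 0.16 over the 30 members, a distance of 0.50. A log2 fold change above 0 was found for 18 of the 30 members and for 13.1% of all genes tested. After each library was divided by its median-of-ratios factor, the medians were -0.00086 for all genes and 0.43 for the members, 26 of the 30 members lay above 0 against 49.8% of all genes, and Mcm3, Mcm4 and Ube2c were called higher (1.13% of all genes) and Cdkn1a lower (1.25%). The members called higher thus kept their direction under this scaling, but of those 7 only Ube2c kept an adjusted p under 0.05.

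**Figure D1:**
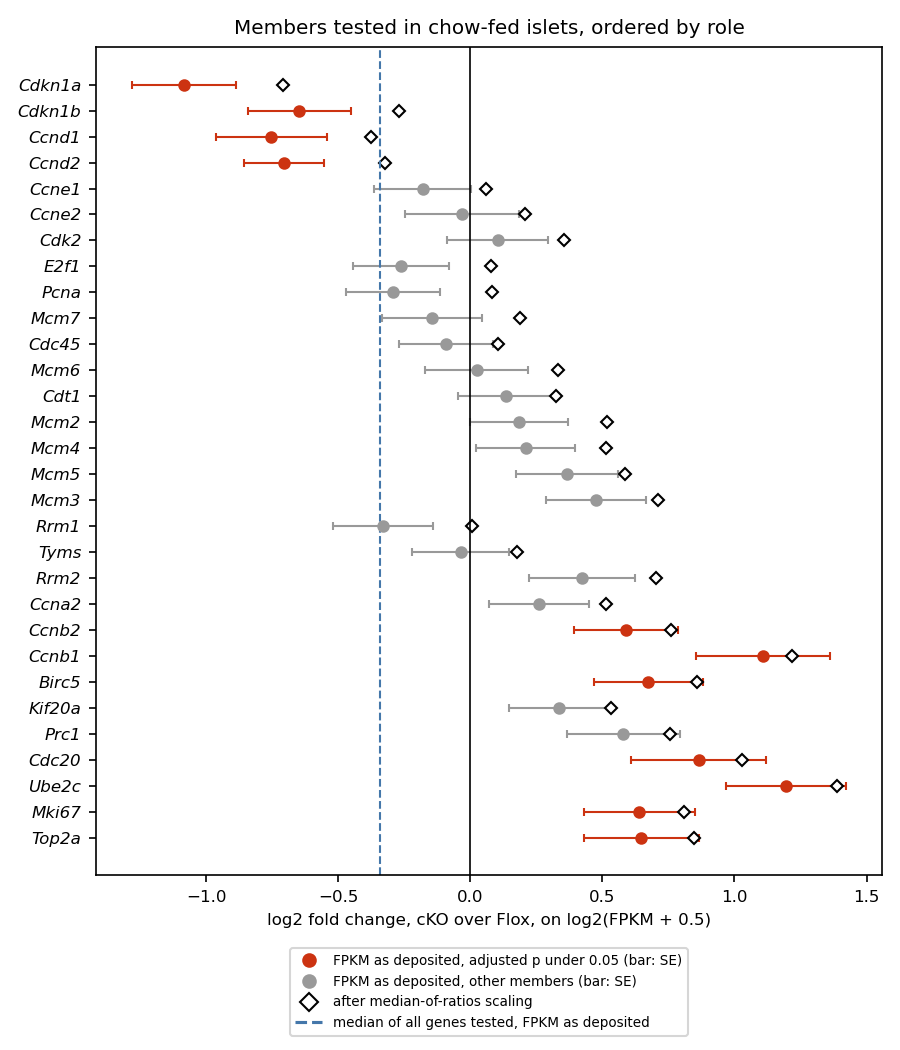
Log2 fold changes, cKO over Flox, of the 30 members tested, ordered by role from the Cdk inhibitors at the top to the chromatin genes at the bottom. Filled points are values on log2(FPKM + 0.5) with their SE, red at an adjusted p under 0.05, open diamonds are the same members after median-of-ratios scaling, and the dashed line marks the median of all genes tested at -0.34. The filled points of the inhibitors and D-type cyclins lie to the left of the dashed line, and the mitotic genes lie to the right of 0 on both scales.

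Among the cyclins of S phase and mitosis, the B-type cyclins rose in cKO islets. Ccnb1 encodes cyclin B1, which activates Cdk1 at the entry into mitosis. It was at 1.51, 0.960, 0.531 and 0.902 FPKM in cKO 1 to 4 and at 0.110, 0.638, 0.0518 and 0.0135 FPKM in Flox 1 to 4. Flox 2 reached the cKO range, above cKO 3, and the other Flox libraries lay far below it. These values stand for 38 to 106 counted fragments in a cKO library and for 8, 46, 4 and 1 in Flox 1 to 4. The mean of cKO was 4.80 times that of Flox, and the log2 fold change was 1.11 ± 0.25 (SE, limma adjusted p = 0.0207). Ccnb2, the second mitotic B-type cyclin, was at 0.793 to 0.966 FPKM in the cKO libraries and at 0.351, 0.772, 0.312 and 0.224 in Flox 1 to 4. No Flox library reached the lowest cKO library, although Flox 2 lay just under it. The log2 fold change of Ccnb2 was 0.59 ± 0.20 (SE, limma adjusted p = 0.0499). Ccna2, cyclin A2 of S phase and early mitosis, had a mean of 1.18 ± 0.303 FPKM in cKO and 0.880 ± 0.0679 in Flox (SD, n = 4 each), with overlapping groups and a log2 fold change of 0.26 ± 0.19 (SE) that did not pass the test (limma adjusted p = 0.272).

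Both genes of anaphase ubiquitination rose. Ube2c encodes the ubiquitin-conjugating enzyme that works with the anaphase-promoting complex. It was at 1.56, 1.82, 1.46 and 1.88 FPKM in cKO 1 to 4 and at 0.444, 1.10, 0.258 and 0.202 FPKM in Flox 1 to 4. Every cKO library was above every Flox library, with 42 to 51 fragments against 6 to 32. The log2 fold change of 1.20 ± 0.23 (SE, limma adjusted p = 0.0129) was the largest increase among the members tested on this scale, whereas Ccnb1 had the larger one at a pseudocount of 0.1 (2.16 beside 1.78) and in the ratio of means (4.80 beside 3.34). Cdc20, the activator of the same complex at the start of anaphase, was at 1.82, 1.08, 0.671 and 1.25 FPKM in cKO and at 0.428, 0.991, 0.269 and 0.141 in Flox. Flox 2 overlapped the cKO range again. Its log2 fold change was 0.86 ± 0.26 (SE, limma adjusted p = 0.0397).

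The markers by which cycling cells are usually recognised moved the same way. Mki67, the antigen Ki-67 that coats mitotic chromosomes, was at 0.961, 1.02, 0.722 and 0.880 FPKM in cKO 1 to 4 and at 0.306, 0.909, 0.211 and 0.286 in Flox 1 to 4. Flox 2 lay inside the cKO range and the other Flox libraries below it. The mean of cKO was 2.09 times that of Flox, and the log2 fold change was 0.64 ± 0.21 (SE, limma adjusted p = 0.0480). Top2a, the topoisomerase that untangles sister chromatids, had means of 1.18 ± 0.320 FPKM in cKO and 0.592 ± 0.334 in Flox (SD, n = 4 each), with a log2 fold change of 0.65 ± 0.22 (SE, limma adjusted p = 0.0499). Birc5, survivin of the chromosomal passenger complex, was at 0.782 to 1.13 FPKM in cKO and 0.216 to 0.860 in Flox, with a log2 fold change of 0.67 ± 0.21 (SE, limma adjusted p = 0.0398). For both genes Flox 2 was the Flox library that overlapped the cKO range.

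The remaining mitotic members were too low for the test or did not pass it. Prc1, which bundles microtubules at the central spindle, had a log2 fold change of 0.58 ± 0.21 (SE, limma adjusted p = 0.0624), and Kif20a, a motor of cytokinesis, one of 0.34 ± 0.19 (SE, limma adjusted p = 0.172). In cKO and Flox, respectively, mean FPKM was 0.461 and 0.221 for Cdk1, 0.657 and 0.304 for the spindle kinase Aurka, 0.309 and 0.119 for the passenger kinase Aurkb, and 0.489 and 0.185 for the mitotic kinase Plk1. The kinetochore and checkpoint genes Cenpe, Cenpf, Ttk, Bub1 and Bub1b had means between 0.0979 and 0.429 FPKM in cKO and between 0.0279 and 0.260 in Flox. Of the 15 members under the filter, 14 had a higher mean log2 value in cKO and 1, Mybl2, a lower one. The mean FPKM was higher in cKO for 20.9% of all genes with a value above 0. The share among genes under the filter alone was not computed. By an exact two-sided permutation test of 4 libraries against 4, unadjusted over the 15, only Cenpe and the spindle protein gene Nusap1 reached p = 0.0286, the smallest that this design allows. The 8 libraries of Nusap1 were at 0.607, 0.446, 0.340 and 0.382 FPKM in cKO and 0.0939, 0.327, 0.0787 and 0.195 in Flox.

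**Figure D2:**
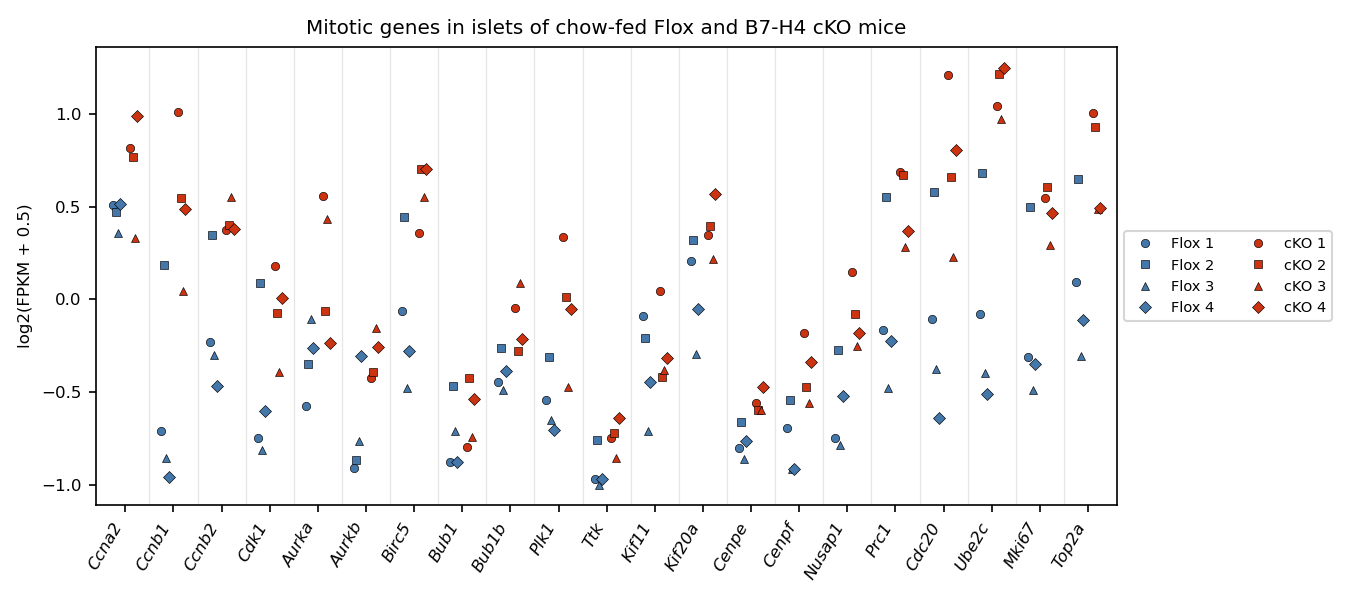
Log2(FPKM + 0.5) of the 21 mitotic members in each chow library, blue for Flox and red for cKO, with a marker shape for each replicate number. The mean of cKO was above that of Flox for all 21, beside 20.9% of all genes with a value above 0, and the blue squares of Flox 2 lie nearest to or among the red points for most genes.

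Taken as a sum, the 21 mitotic members made up 14.5 ± 2.16 FPKM in cKO and 6.83 ± 3.40 in Flox (SD, n = 4 each). The sum was 17.0, 14.8, 11.7 and 14.5 FPKM in cKO 1 to 4 and 6.13, 11.8, 4.26 and 5.14 in Flox 1 to 4, so that only Flox 2 overlapped the cKO libraries. Flox 2 was the highest Flox library for 17 of the 21 members, and it was the highest for 10.1% of all genes with a value above 0. Every cKO library was above Flox 1, Flox 3 and Flox 4 for 16 of the 21 members, a pattern found for 2.97% of all genes and described after the values were seen. Without Flox 2, 11 members were called higher (2.82% of all genes tested) and 6 lower (57.2%), and the log2 fold change of Mki67 was 0.86 and that of Ccnb1 1.37. The calls of members varied with the library left out, as did those of all genes. Members called higher numbered 2, 0, 3 and 1 without cKO 1, cKO 2, cKO 3 and cKO 4, and 1 each without Flox 3 and Flox 4, beside 0.856%, 0.0169%, 0.304%, 0.143%, 0.153% and 0.213% of all genes. Members called lower numbered 1, 2 and 1 without cKO 2, cKO 3 and cKO 4, and 2 each without Flox 3 and Flox 4, beside 0.144%, 2.78%, 0.608%, 1.01% and 0.997% of all genes. With 1 library left out, the log2 fold change of Ube2c ranged from 1.05 to 1.45, that of Mki67 from 0.53 to 0.86 and that of Cdkn1a from -1.29 to -0.98. When every gene with a value above 0 was tested, no gene of the 17361 reached an adjusted p under 0.05 in limma (0.00% in both directions), while an unadjusted p under 0.05 was found for 20 members on the higher side and 4 on the lower, beside 602 and 4937 of all genes. In the test of the 30 members an unadjusted p under 0.05 was found for 10 on the higher side and 4 on the lower. Of all 11804 genes tested, 368 were higher and 4526 lower at that threshold. Without cKO 2 the counts were 9 and 4 members, beside 249 and 2824 of 11836 genes.

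Between the chow groups the mitotic sum and the acinar share were both higher in cKO. Listed by falling acinar share, Flox 2, Flox 1, Flox 3 and Flox 4 had sums of 11.8, 6.13, 4.26 and 5.14 FPKM. In the same listing cKO 2, cKO 4, cKO 3 and cKO 1 had sums of 14.8, 14.5, 11.7 and 17.0 FPKM. All 18 acinar markers had higher means in cKO, by a median of 1.40 on the log2 scale, and none passed the test. Flox 2 had the highest acinar share of the Flox libraries at 31.0%, beside 24.1% in Flox 1, 9.57% in Flox 3 and 6.65% in Flox 4. It also had the highest sum of the 14 intestinal epithelial markers found in the table, 51.5 FPKM beside 18.6 to 25.6 in the other Flox libraries and 14.7 to 25.3 in cKO. The 10 duct markers summed to 1238 to 1507 FPKM in cKO and 530 to 1188 in Flox, with 1 of 9 tested called higher, and Flox 2 was the highest Flox library there too. The 11 islet endocrine markers made up 27.1% to 34.6% of all FPKM in cKO and 38.0% to 57.7% in Flox, without overlap, and 5 of the 11 were called lower. Immune, vascular and stromal markers were lower or overlapped in cKO. The 8 endothelial markers summed to 82.1 to 109 FPKM in cKO and 107 to 188 in Flox, and 6 of them fell. The 8 macrophage markers summed to 60.1 to 81.3 FPKM in cKO and 53.4 to 117 in Flox with none called. The 8 stellate and fibroblast markers summed to 24.4 to 32.0 FPKM in cKO and 38.1 to 56.7 in Flox, and the 9 lymphocyte markers in the table to 1.04 to 2.47 and 3.44 to 5.71, with Cd3d and Cd8a at 0 in all cKO libraries. No acinar, duct, endothelial or macrophage marker was at 0 throughout a chow group, while of the intestinal markers Fabp2 was at 0 in all Flox libraries and Cdx1, Clca1, Muc3, Mptx1 and Guca2a in all cKO libraries. The part of the acinar, duct and intestinal transcripts in the result was not tested.

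**Figure D3:**
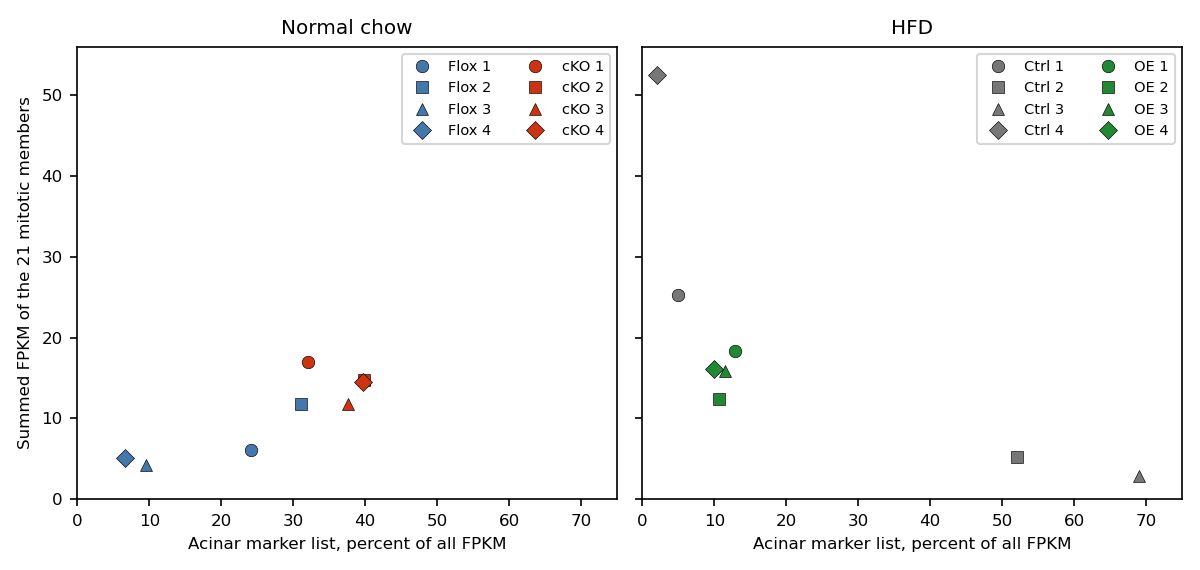
Summed FPKM of the 21 mitotic members against the percent of all FPKM in the 18 acinar markers, one point for each library, with the chow table at left and the HFD table at right. In the chow table the libraries with an acinar share of 31.0% or more have the higher sums, and in the HFD table the Ctrl libraries with acinar shares of 52.1% and 69.1% have the lowest.

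Sequences before the start of these genes are shown because the mitotic members moved together. The promoter windows of RefSeq (GRCm38.p6) held 37 of the 45 members in 41 windows, and Ccnd1, Ccnd2, Ccne2, Foxm1, Mcm4, Ccna2, Aurkb and Kif20a were missing. In the 250 bases before each start, on both strands, the letters TTTGAA of the cell cycle genes homology region (CHR) were found for 5 of the 7 members called higher in cKO, in 5 of 34 windows of the other members, and in 5252 of all 32851 windows. CCAAT, the letters bound by NF-Y, was found for 6 of those 7, in 23 of the 34 other windows, and in 33.8% of all windows. An E2F motif (TTTCGCGC, TTTGGCGC, TTTCCCGC or TTTGCCGC) was found for none of the 7, in 7 of the 34 windows, and in 1.86% of all. The letters of different motifs overlapped in 0 of the 41 windows. A match describes letters only and is no evidence of binding. The following stretches run 5′ to 3′ on the strand of the gene and end before the first annotated transcript base. Capitals mark CHR and CCAAT letters in either orientation in the first 4, and CCAAT and E2F letters in the last. Ccnb2, Cdc20, Mki67 and Top2a are shown because each rose in cKO and holds both CHR and CCAAT letters, Ube2c also rose and holds both, but is not printed because annotated transcripts begin before its CHR match, and Mcm6 is shown because it holds E2F letters, as do Cdc6, Mcm5 and 1 of 2 windows of Mcm7 among the replication genes.
Ccnb2, chr9:70421555-70421729, minus strand: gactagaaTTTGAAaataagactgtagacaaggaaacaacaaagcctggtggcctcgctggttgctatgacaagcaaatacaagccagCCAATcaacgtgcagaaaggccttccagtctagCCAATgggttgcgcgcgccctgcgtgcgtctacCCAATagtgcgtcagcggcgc
Cdc20, chr4:118437353-118437443, minus strand: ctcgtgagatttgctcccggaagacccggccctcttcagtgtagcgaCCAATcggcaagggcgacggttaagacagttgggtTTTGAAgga
Mki67, chr7:135716469-135716574, minus strand: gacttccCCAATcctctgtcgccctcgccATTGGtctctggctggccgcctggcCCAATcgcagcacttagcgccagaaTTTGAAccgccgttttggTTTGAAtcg
Top2a, chr11:99024190-99024384, minus strand: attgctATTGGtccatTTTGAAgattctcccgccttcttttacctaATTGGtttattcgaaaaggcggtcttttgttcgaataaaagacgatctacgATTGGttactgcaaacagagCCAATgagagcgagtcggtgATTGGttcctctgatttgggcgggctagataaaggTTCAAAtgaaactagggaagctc
Mcm6, chr1:128359706-128359820, minus strand: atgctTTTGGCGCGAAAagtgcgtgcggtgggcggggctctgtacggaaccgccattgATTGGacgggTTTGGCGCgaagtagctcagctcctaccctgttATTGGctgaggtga
Of these, Cdc20 holds 1 CHR match and 1 CCAAT match in the stretch shown, Ccnb2 1 and 3, Mki67 2 and 3, and Top2a 2 and 5. Mcm6 holds 3 E2F matches, of which 2 share bases, and 2 CCAAT matches. Birc5, also among the increased genes, had none of the 3 motifs in its window, and Ccnb1 had CCAAT alone.

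The Cdk inhibitor genes Cdkn1a and Cdkn1b went the other way from the mitotic genes. Cdkn1a encodes p21, an inhibitor of cyclin-dependent kinases that p53 induces. It was at 18.4, 18.4, 16.2 and 14.0 FPKM in cKO 1 to 4 and at 44.3, 23.2, 37.5 and 42.7 in Flox 1 to 4. Every cKO library was below every Flox library, and Flox 2 was the Flox library nearest to them. The mean of Flox was 2.21 times that of cKO, and the log2 fold change was -1.08 ± 0.20 (SE, limma adjusted p = 0.0122). This decrease was also larger than the shift of the table, since it was -0.71 after median-of-ratios scaling (limma adjusted p = 0.0398). Cdkn1b, p27, the main inhibitor of resting β cells, was at 14.1 to 18.7 FPKM in cKO and 17.7 to 32.6 in Flox, where the lowest value, in Flox 2, lay below cKO 1. Its log2 fold change was -0.65 ± 0.20 (SE, limma adjusted p = 0.0378), and -0.27 after that scaling (limma adjusted p = 0.0909). Cdkn2a, whose locus encodes p16 and p19ARF and whose 2 products a gene-level value cannot separate, was at 0.380 ± 0.0980 FPKM in cKO and 0.342 ± 0.111 in Flox (SD, n = 4 each), under the filter.

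The D-type cyclins, the first cyclins to respond to growth signals, fell in cKO with Cdkn1a and Cdkn1b. So did 12.8% of all genes tested and 5 of the 11 islet endocrine markers. Ins2, the insulin gene that marks β cells, was at 120477 to 148534 FPKM in cKO and 173310 to 250591 in Flox, and its part in the levels of Ccnd2 and Cdkn1b was not tested. Ccnd2, cyclin D2, the main D-type cyclin of mouse β cells, was at 68.6, 51.8, 54.6 and 49.9 FPKM in cKO 1 to 4 and at 85.9, 83.0, 97.3 and 99.9 in Flox 1 to 4. The groups did not overlap, and the log2 fold change was -0.71 ± 0.15 (SE, limma adjusted p = 0.0162). Ccnd1 was at 19.2 to 26.2 FPKM in cKO and 27.7 to 51.8 in Flox, again without overlap, with a log2 fold change of -0.75 ± 0.21 (SE, limma adjusted p = 0.0319). After median-of-ratios scaling both decreases were near -0.35 and missed the threshold, at -0.32 (limma adjusted p = 0.0781) for Ccnd2 and -0.37 (limma adjusted p = 0.126) for Ccnd1. The other G1 members did not pass the test. The log2 fold change was -0.18 ± 0.18 (SE) for Ccne1, cyclin E1, and 0.10 ± 0.19 (SE) for its kinase gene Cdk2. E2f1, the factor that switches on replication genes, was at 3.27 to 4.52 FPKM in cKO and 4.09 to 4.79 in Flox, with a log2 fold change of -0.26 ± 0.18 (SE, limma adjusted p = 0.252). The values of Ccne1 and E2f1 turned positive, at 0.060 and 0.079, after median-of-ratios scaling.

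**Figure D4:**
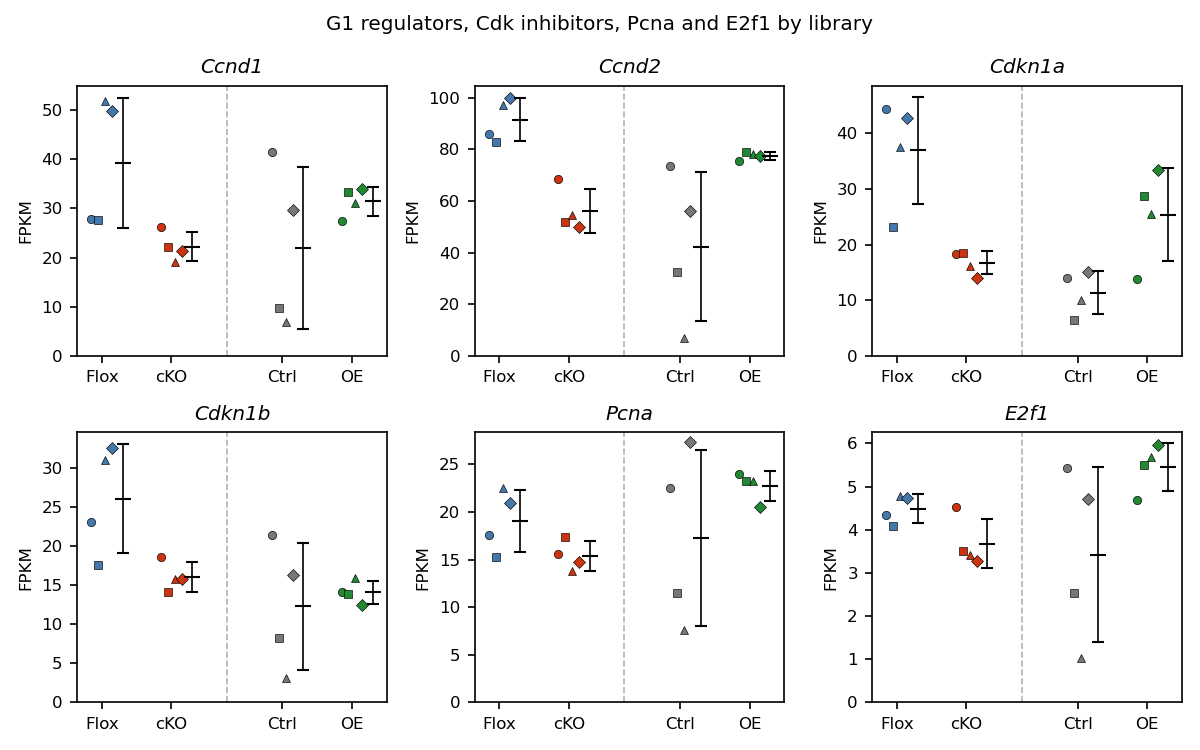
FPKM of the D-type cyclins, the inhibitors Cdkn1a and Cdkn1b, Pcna and E2f1 in every library, with the mean and SD of each group in black, and with the chow and HFD tables to the left and right of the dashed line. Ccnd1, Ccnd2 and Cdkn1a of cKO lie below every Flox point, and the Ctrl points of Ccnd2 spread from 7.09 to 73.4 FPKM under the 4 OE points at 75.5 to 78.9.

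Genes of DNA replication lay between these groups, and none of the 12 members for replication and nucleotide supply that were tested passed in chow-fed islets at FPKM as deposited. The MCM helicase subunits differed in level and in difference. Mcm3 was at 1.05 ± 0.181 FPKM in cKO and 0.622 ± 0.196 in Flox (SD, n = 4 each), with a log2 fold change of 0.48 ± 0.19 (SE, limma adjusted p = 0.0746), and Mcm5 had one of 0.37 ± 0.19 (SE, limma adjusted p = 0.146). Mcm2 and Mcm4 had log2 fold changes of 0.18 and 0.21, and Mcm6 and Mcm7 had mean ratios of cKO to Flox of 1.01 and 0.884. After median-of-ratios scaling Mcm3 (0.71, limma adjusted p = 0.0399) and Mcm4 (0.51, limma adjusted p = 0.0397) passed the threshold. Pcna, the sliding clamp of the replication fork and the most abundant of these genes, was at 15.4 ± 1.54 FPKM in cKO and 19.1 ± 3.27 in Flox (SD, n = 4 each), with a log2 fold change of -0.29 ± 0.18 (SE, limma adjusted p = 0.196) that turned to 0.082 after median-of-ratios scaling. The subunits of ribonucleotide reductase, which makes deoxynucleotides, had opposite signs at FPKM as deposited. Rrm2, its cell-cycle regulated subunit, had a log2 fold change of 0.42 ± 0.20 (SE, limma adjusted p = 0.115) and Rrm1 one of -0.33 ± 0.19 (SE, limma adjusted p = 0.173), which was 0.0067 after median-of-ratios scaling. Without Flox 2, Mcm3, Mcm5 and Rrm2 passed the test on the higher side and Pcna and Rrm1 on the lower, beside 2.82% of all genes called higher and 57.2% called lower in that fit.

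Further genes of the pathway were read from lists of the same kind. Of all genes tested, 1.02% were called higher in cKO at FPKM as deposited. Of 40 other mitotic genes, 13 were tested and 2 rose in cKO, the spindle assembly factor gene Tpx2 with a log2 fold change of 0.91 ± 0.21 (SE, limma adjusted p = 0.0182) and the cytokinesis gene Racgap1 with one of 0.86 ± 0.25 (SE, limma adjusted p = 0.0355). The median of the 13 was 0.22, and every cKO library was above every Flox library for 9 of the 40, beside 1.44% of all genes with a value above 0. Of 25 other S-phase genes, 16 were tested and 1 rose, Gins2 of the replicative helicase, with a log2 fold change of 0.95 ± 0.20 (SE, limma adjusted p = 0.0147), while the median of the 16 was -0.27. The counts of decreases in the next lists did not exceed the 12.8% of all genes called lower. In the Rb and E2F network 1 of 13 genes tested fell, the E2F partner gene Tfdp1 (-0.69 ± 0.21, SE, limma adjusted p = 0.0372). Among 16 other G1 regulators tested, 1 fell, the Polycomb gene Bmi1 (-0.76 ± 0.21, SE, limma adjusted p = 0.0317). Of 11 p53 response genes tested beside Cdkn1a, 1 fell, Trp53inp1 (-0.84 ± 0.17, SE, limma adjusted p = 0.0141), and their median of -0.085 lay above that of all genes. At FPKM as deposited no gene of these lists moved in the opposite direction to the one given with an adjusted p under 0.05. After median-of-ratios scaling Tfdp1 (-0.33), Bmi1 (-0.40), Trp53inp1 (-0.46) and Racgap1 (1.21) missed the threshold, with limma adjusted p of 0.132, 0.0755, 0.0954 and 0.0668, and Tpx2 and Gins2 passed it. After that scaling, and named after their values were seen, the growth regulator gene Myc (0.90, limma adjusted p = 0.0216), the mitotic genes Tacc3 (0.66, limma adjusted p = 0.0379) and Kif22 (0.78, limma adjusted p = 0.0468), and Plk2 of the p53 response (0.74, limma adjusted p = 0.0400) were called higher in cKO. In that fit 1.13% of all genes tested were called higher.

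In HFD-fed islets no member passed the test between OE and Ctrl. Of the 45 members 36 were tested among 12132 genes, and 0 were called higher (0.0330% of all genes, 4 genes) and 0 lower (0.00% of all genes) in limma at an adjusted p under 0.05. At an unadjusted p under 0.05, 2 members were higher in OE, Ccnd2 and Cdkn1a, beside 5.58% of all genes, and none was lower, beside 0.833%. The median log2 fold change was 0.44 over all genes and 0.15 over the 36 members, and it was -0.0064 and -0.095 after median-of-ratios scaling. A log2 fold change above 0 was found for 26 of the 36 members and for 84.2% of all genes tested, and after median-of-ratios scaling for 13 of 32 and 49.3%. No member was called after that scaling either (0.0332% of all genes higher), or when every gene above 0 was tested (0.0751% of all genes higher). After that scaling, limma gave an unadjusted p under 0.05 for 3 members on the higher side and 1 on the lower. Of all 12044 genes, 1601 were higher and 1144 lower at that threshold. With every gene above 0 tested, 1 member reached it, on the higher side, beside 709 higher and 242 lower of 17318 genes.

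The spread of the Ctrl libraries was wide for nearly every member. Mki67 was at 1.57, 0.227, 0.137 and 2.03 FPKM in Ctrl 1 to 4 and at 1.10, 0.399, 0.716 and 0.898 in OE 1 to 4. Ube2c was at 5.35, 0.925, 0.282 and 10.7 FPKM in Ctrl and at 3.02, 2.10, 2.56 and 2.23 in OE. Both genes had Ctrl libraries on either side of all OE libraries. Ctrl 4 was above every OE library for all 21 mitotic members, and for 35 of the 45 members. This held for 54.9% of all genes with a value above 0 and 59.2% of those tested. Ctrl 2 and Ctrl 3 lay below every OE library for 19 of the 21. This held for 69.3% of all genes with a value above 0 and 87.3% of those tested. The count of 19 was near the share of the genes tested, so that it is no result about the mitotic members. The summed FPKM of the mitotic members was 25.3, 5.21, 2.82 and 52.6 in Ctrl 1 to 4 and 12.4 to 18.4 in the OE libraries.

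**Figure D5:**
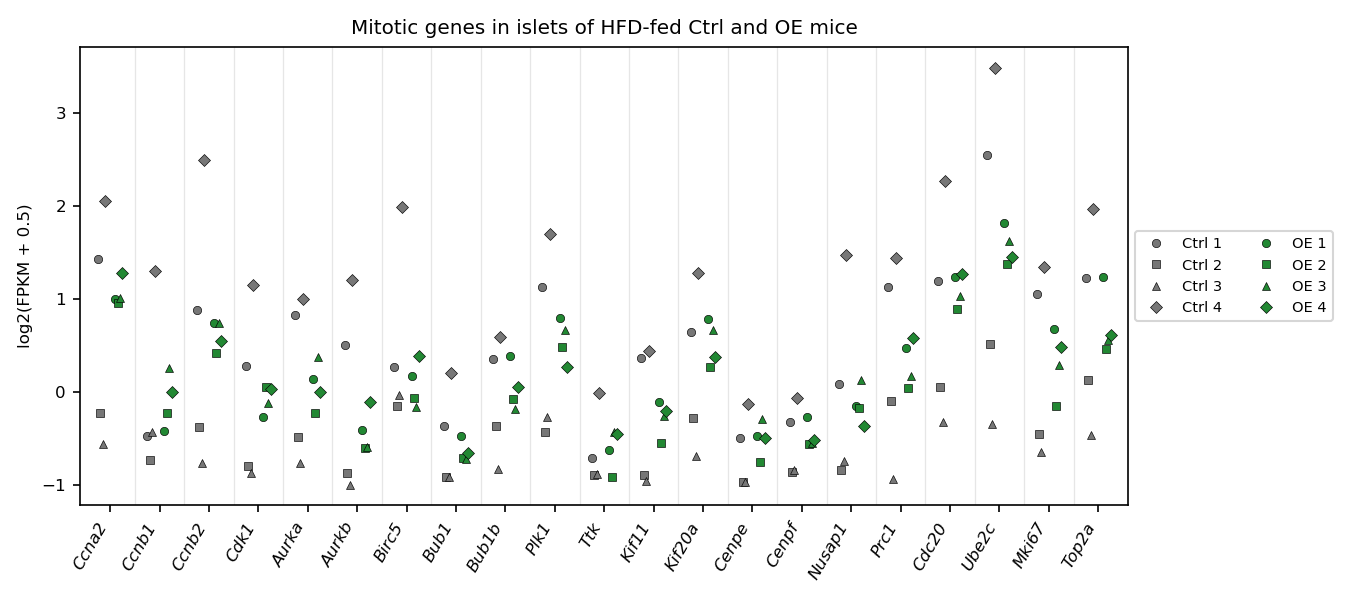
Log2(FPKM + 0.5) of the 21 mitotic members in each HFD library, grey for Ctrl and green for OE, with a marker shape for each replicate number. The grey diamonds of Ctrl 4 lie above all green points for every gene, the grey squares and triangles of Ctrl 2 and Ctrl 3 lie at the bottom for most, and the OE libraries lie between.

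Marker transcripts moved with this spread. Acinar markers made up 5.0% of all FPKM in Ctrl 1, 52.1% in Ctrl 2, 69.1% in Ctrl 3 and 1.99% in Ctrl 4. The 8 macrophage markers summed to 540 FPKM in Ctrl 4, 164 in Ctrl 1, 42.1 to 66.9 in Ctrl 2 and Ctrl 3, and 86.3 to 111 in OE. The 8 endothelial markers summed to 726 FPKM in Ctrl 4, 465 in Ctrl 1, 67.3 to 86.8 in Ctrl 2 and Ctrl 3, and 204 to 254 in OE. None of the acinar, macrophage and endothelial markers was at 0 throughout Ctrl or OE, and the part of these transcripts in the members' values was not tested. Without Ctrl 2 and Ctrl 3, in a fit with 2 Ctrl libraries chosen after the values were seen, 8 members were called lower in OE (Cdk2, Ccna2, Aurka, Aurkb, Plk1, Prc1, Ube2c and Mki67) and 0 higher, beside 21.9% of all genes lower and 2.44% higher, so that the share of members called lower was near that of all genes. The log2 fold change in that fit was -1.45 for Ube2c (limma adjusted p = 0.00987) and -0.87 for Mki67 (limma adjusted p = 0.0372), and the median was -0.21 over all genes and -0.51 over the 38 members tested. Without Ctrl 4 the median was 0.63 over the members and 0.68 over all genes, and no member was called (0.0419% of all genes higher). In that fit limma gave an unadjusted p under 0.05 for 4 of 32 members tested, all on the higher side. Of all 11924 genes, 2358 were higher and 162 lower at that threshold. The sign of the members' median between OE and Ctrl therefore depended on which Ctrl libraries were used, as did that of all genes.

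Ccnd2 and Cdkn1a were the members with an unadjusted p under 0.05 between OE and Ctrl. This count among 36 members was near the 5.58% of all genes, so that it is no result about the members. Ccnd2 was at 75.5, 78.9, 78.0 and 77.3 FPKM in OE 1 to 4 and at 73.4, 32.4, 7.09 and 56.05 in Ctrl 1 to 4. It was the only member whose groups did not overlap, beside 4.91% of all genes with a value above 0 that were higher in every OE library. No member was lower in every OE library, beside 1.05% of all genes. Its log2 fold change was 1.29 ± 0.57 (SE, limma adjusted p = 0.591), and it was 0.27 without Ctrl 2 and Ctrl 3 and 0.75 after median-of-ratios scaling. The islet endocrine markers made up 60.2%, 19.98%, 4.60% and 58.0% of all FPKM in Ctrl 1 to 4 and 54.2% to 57.5% in OE, in the same order over the Ctrl libraries as Ccnd2, and their part in its values was not tested. Cdkn1a was at 13.9, 28.8, 25.5 and 33.4 FPKM in OE and at 13.9, 6.52, 10.1 and 15.0 in Ctrl, so that OE 1 lay within the Ctrl range and the other OE libraries above it. Its log2 fold change was 1.12 ± 0.46 (SE, limma adjusted p = 0.591), and it was 0.72 without Ctrl 2 and Ctrl 3 (limma adjusted p = 0.122) and 0.58 after median-of-ratios scaling. Ccnd1 (0.86), Ccne1 (0.72) and E2f1 (0.78) had positive log2 fold changes and Cdk2 (-0.33) and Birc5 (-0.44) negative ones, with limma adjusted p between 0.591 and 0.636. The value of Ccnd1 was -0.16 without Ctrl 2 and Ctrl 3. Of the 9 members under the filter, 6 had a higher and 3 a lower mean log2 value in OE, and none reached an exact permutation p under 0.05 (4 libraries against 4, two-sided). Of the other genes of the pathway, none was called in either direction in any of the 5 lists, of which 13, 16, 18, 18 and 11 genes were tested. At an unadjusted p under 0.05 in limma, 1 other G1 regulator, the inhibitor gene Cdkn2b (1.19), and 1 p53 response gene, Sesn2 (1.28), were higher in OE on the log2 scale, and none was lower.

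The most abundant members were D-type cyclins, Cdk inhibitors and Pcna in all groups. Ccnd2 was the highest member in each of the 4 groups, with means of 91.5 FPKM in Flox, 56.2 in cKO, 42.2 in Ctrl and 77.4 in OE. Ccnd1, Cdkn1a, Cdkn1b and Pcna followed, with means between 11.4 and 39.3 FPKM, and their order differed between groups and in Ctrl lay within the spread of the libraries. The means of all other members stayed at or below 5.46 FPKM, the value of E2f1 in OE. The chow and HFD groups differed in diet and in the infusion of virus through the pancreatic duct. The ages of the chow-fed mice were not given, and the values of the chow and HFD libraries were deposited separately. These levels are therefore set side by side without a test. The licensing and fork genes summed to 31.9 ± 4.44 FPKM in Flox, 29.6 ± 1.83 in cKO and 40.3 ± 3.41 in OE (SD, n = 4 each), and to between 13.9 and 60.9 FPKM in the Ctrl libraries, of which Pcna alone made up more than the 9 others together in the means of Flox.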

How the data were processed

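The authors deposited 2 tables of FPKM values, calculated by them for the mm10 build named in the submitters’ processing notes, one with the cKO and Flox libraries and the other with the OE and Ctrl libraries. The aligner, the counting tool and read totals were not given in the sources used here. FPKM was used as deposited, and no column lacked a sample. Low FPKM values fall on whole steps, 1 for each counted fragment. The commonest ratio of low values between libraries gave relative depth, and the values of 42 of the 45 members were whole multiples of 1 step in all 16 libraries (tolerance 0.02 of a step). No count test was run on them, and counting intervals were not given.

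Each comparison was fitted in R 4.3.3 with limma 3.58.1 (trend and robust) on log2(FPKM + 0.5), leaving out genes whose mean over the 8 libraries was under 0.5 FPKM. P-values are two-sided with Benjamini-Hochberg adjustment. Fold changes on this scale understate the change of low genes. Median-of-ratios factors were the median ratio to the geometric mean over genes above 0 in all libraries of a table. Members under the filter were tested by exact permutation in scipy 1.17.1. Motifs were searched in RefSeq windows (GRCm38.p6, the assembly behind mm10). The fit was tested on simulated data. The members and lists were chosen with earlier results of these data known. Every member could be named, and of the other pathway lists the genes with an adjusted p under 0.05. Tested alternatives are given in the closing section.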

Additional observations from a re-analysis of the deposited data

Results flagged for a closer look

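With each of the 45 members read in 4 groups of 4 libraries, 12 of the 180 groups held a library far from the other 3, by Dixon's test at 95%, where chance alone gives about 1 in 20 groups, or 9 of 180. In Flox, these values belonged to Flox 2, which was high for Mki67 (0.909 FPKM beside 0.211 to 0.306), Ccnb1 (0.638 beside 0.0135 to 0.110) and Ttk (0.0916 beside 0 to 0.0101). In cKO, Ccnb2 was high in cKO 3 (0.966 FPKM beside 0.793 to 0.819) and Foxm1 was low in cKO 2 (0.335 beside 0.408 to 0.416). In Ctrl, they belonged to Ctrl 4, which was high for Ccnb1 (1.96 FPKM beside 0.103 to 0.241), Birc5 (3.46 beside 0.397 to 0.697) and Ttk (0.487 beside 0.0376 to 0.107). In OE, OE 1 was high for Top2a (1.85 FPKM beside 0.874 to 1.02), Mcm6 (3.35 beside 2.17 to 2.34) and Cenpf (0.328 beside 0.174 to 0.198), and OE 4 was high for Ccna2 (1.91 beside 1.43 to 1.51).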

How the results depend on the processing

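The members called higher in cKO numbered 7 at FPKM as deposited, and 4 with a pseudocount of 1, 0 when every gene above 0 was tested, 1 at a minimum mean of 1 FPKM, 3 with median-of-ratios scaling, 1 with scaling to FPKM outside the acinar list, 2 without trend and robust fitting, and 2 with the fold minimum. The shares of all genes called higher in these fits were 1.04%, 0.00%, 0.975%, 1.13%, 0.457%, 1.44% and 0.339%. Those called lower numbered 4, and 0 when every gene above 0 was tested, 1 with median-of-ratios scaling, 0 with scaling outside the acinar list, 2 without trend and robust fitting, 7 with the 3 libraries per group of the study's heatmaps (where 9 members were higher, beside 2.68% of all genes), and 1 with the fold minimum, beside 0.00%, 1.25%, 0.271%, 8.25%, 63.5% and 0.974% of all genes. Leaving out 1 library gave 0 to 11 higher and 1 to 6 lower, beside 0.0169% to 2.95% and 0.144% to 57.2% of all genes. The cause of these changes was not tested. The median of the members, 0.16, was -0.089 at a minimum mean of 1 FPKM, 0.43 with median-of-ratios scaling and 0.38 with scaling outside the acinar list. Under median-of-ratios scaling Ccne1 (0.060), E2f1 (0.079), Pcna (0.082) and Rrm1 (0.0067) reversed, as did Ccne1 (0.011), E2f1 (0.0079) and Pcna (0.0039) under scaling outside the acinar list. The other 20 of the 24 fold changes given for cKO kept their direction under every alternative in which they were tested, which left out some at a minimum mean of 1 FPKM or with fewer libraries. In OE against Ctrl no alternative gave a called member except that without the acinar-rich Ctrl 2 and Ctrl 3, chosen after seeing the data, with 8 lower, where Ccnd1 reversed to -0.16. Birc5 ranged from -0.66 to 0.054 with 1 library left out, and reversed without Ctrl 4. The other 5 of the 7 fold changes given for OE kept their direction where tested, and of the remaining 29 members tested none did under all alternatives.

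With the replicate number as a replicate block, 8 members were higher and 4 lower in cKO, beside 2.45% and 20.8% of all genes. In OE 0 were higher and 0 lower, beside 0.0330% and 0.00%. Same-numbered libraries shared only a number, with correlations of their deviations between -0.21 and 0.12, so that no pairing was used. FPKM gives no counting error, and at under 1 FPKM a value rests on few fragments, as few as 1 for Ccnb1 in Flox 4. With the spread of Ctrl, a difference in OE could be missed. In the simulated data, values were drawn independently for each gene with its own spread. Between OE and Ctrl, 0 of 100 genes changed by 1 on the log2 scale reached an adjusted p under 0.05 in limma. Of those changed by 2, 33 of 100 did. Between cKO and Flox the counts were 75 and 98 of 100.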
